A study of Homo sapiens with 39 samples.

Results

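RNA was sequenced from 3 libraries of the lymphoma line OCILy10 treated with NEO2734 and 3 libraries of the same line treated with DMSO, the vehicle, all for 6 h. These are 6 of the 39 libraries of the series, chosen by line and treatment as the labels state them. OCILy10 is an established human line of diffuse large B cell lymphoma of the activated B cell type. NEO2734 is a small molecule known to block the bromodomains of the BET proteins and of the acetyltransferases CREBBP and EP300. The other libraries used for comparison hold NEO2734 and DMSO in DOHH2, TMD8 and Toledo (18 libraries) and OTX015, a BET bromodomain inhibitor, in OCILy10 (3 libraries). TMD8 is also of the activated B cell type, and DOHH2 and Toledo are of the germinal centre type. No doses are given, and nothing states that replicate libraries are separate cultures, so p-values measure the spread between libraries only.

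BET proteins read acetylated histones at promoters and enhancers and bring the kinase complex P-TEFb (CDK9 with a cyclin T) to RNA polymerase II, which then leaves its pause near the start site. HEXIM1 holds P-TEFb in an inactive complex, and a rise of its transcript is widely used as a sign of BET inhibition. CREBBP and EP300 acetylate histones at enhancers, including those through which PAX5, EBF1, IKZF1 and IRF4 keep a B cell a B cell. In the activated B cell type, chronic signalling from the B cell receptor and Toll-like receptors to NF-kB also drives cytokine and interferon response genes.

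The NEO2734 libraries held 10785804, 6679540 and 2514734 counts, against 10044245, 6717808 and 2083572 counts in the DMSO libraries, so replicates 1 and 2 were deep and replicate 3 was shallow in both groups. Between 14446 and 14600 genes had a count in each. The depth term of the fit was called for 6987 of 13160 genes in OCILy10. Only replicate 3 was shallow in these 6 libraries, so its difference from replicates 1 and 2 cannot be told apart from depth. Replicates 1 and 2 were both deep, and the depth term does not part them. The 8 genes private to OCILy10 stood at 93.8 to 110% of the line's level in the 6 libraries, and those of the other lines at 0.699% or less. These 6 libraries helped to choose the private genes and to set the line's level, so these values follow in part from the choice. Elsewhere in the series, Toledo DMSO replicate 2, OCILy10 CB103 replicate 2 and DOHH2 NEO2734 replicate 3 held genes of another line (70.4%, 27.1% and 12% of that line's level), and these 3 were left out of the fit, so 2 of the 18 libraries of the other lines were not used. Levels are in CPM, a gene's count relative to its library's total after TMM scaling, and changes are log2 of NEO2734 over DMSO with the SE after ±. A gene was called when its adjusted p in edgeR's quasi-likelihood test with Benjamini-Hochberg adjustment was under 0.05, and all adjusted p-values are from that test. In simulated data, 23 of the 165 calls were genes that had not been changed, a larger share than this cut is meant to allow. A lower level in bulk RNA can come from fewer cells of a type or from less RNA per cell, which cannot be told apart.

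NEO2734 changed 1970 of 13160 genes tested in OCILy10, or 15%. Of these, 861 rose (6.54% of genes tested) and 1109 fell (8.43%), and changes of at least 2-fold numbered 339 upward and 550 downward. The median change of all genes tested was -0.04. The 3 NEO2734 libraries lay wholly above or below the 3 DMSO libraries for 2600 genes (19.8%), with 9.43% above and 10.3% below, and this held for 1383 of the called genes. The number called depended on how depth and pairing were modelled. A replicate block within each line in place of the depth term called 946 genes, of which 932 were among the 1970. In that block same-numbered libraries can differ in depth, since OCILy10 OTX015 replicate 2 was shallow. Toledo replicate 1 was deep with DMSO and shallow with NEO2734, and Toledo replicate 3 was shallow with DMSO and deep with NEO2734. A replicate block in the 6 libraries alone called 3932 genes, of which 1903 were among the 1970. Blocking OCILy10 as 3 depth classes, a fit chosen after seeing the data, called 2142 genes, of which 1967 were among the 1970. Without a depth term or a replicate block 214 genes were called. Within the deep libraries alone 120 were called and within the shallow libraries alone 27. With all 39 libraries in the fit 994 were called. Without DMSO replicate 3 the count was 1285, and without NEO2734 replicate 3 it was 1055.

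The risen genes held more protein-coding genes (96.5%) than the fallen genes (89.5%) or all genes tested (85.6%). They also spanned more of the genome, with a median of 58.1 kb, against 34.5 kb for the fallen genes and 29.3 kb for all genes tested. The median DMSO level was 23.6 CPM for risen genes, 45.9 CPM for fallen genes and 22.1 CPM for all genes tested. These are descriptions of the called genes, and level and length also bear on which genes can be called.

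DHRS2, which encodes a mitochondrial short-chain dehydrogenase (chr14:23630115-23645639 on GRCh38), rose most among genes of at least 5 CPM whose groups did not overlap. It had 111, 132 and 61.1 CPM in the NEO2734 libraries, against 4.402, 8.53 and 4.09 CPM in the DMSO libraries. Every NEO2734 library stood above every DMSO library, the change was 4.19 ± 0.42 and the adjusted p was 2.6e-07. ALKBH5, the RNA demethylase that removes m6A (chr17:18183078-18209954), started from a higher level. It had 319.6, 309 and 576 CPM with NEO2734, against 50.6, 50.6 and 76.1 CPM with DMSO (2.73 ± 0.18, adjusted p = 3.97e-11). Its groups were far apart at both depths. MAP1A, which encodes a microtubule-associated protein, had 14.6, 14.7 and 42.7 CPM with NEO2734, against 1.43, 2.31 and 3.06 CPM with DMSO (3.22 ± 0.35, adjusted p = 6.06e-07).

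The other 9 of the 12 largest rises were ZCCHC12 (3.97), the glucosidase-like gene MGAM2 (3.68), the melanin synthesis gene DCT (3.31), the LIM protein gene CSRP2 (3.27), the kinase gene MAK (3.08), the lysophosphatidic acid receptor gene LPAR3 (2.96), the germ cell gene TEX14 (2.74), the p53-binding protein gene PPP1R13B (2.70) and the MAX partner gene MXD4 (2.66). Many of these were near 0 in DMSO: ZCCHC12 had 4 counts over the 3 DMSO libraries and CSRP2 had 7, against 76 each over the 3 NEO2734 libraries. All 12 stayed called when any 1 of the 6 libraries was left out and with the replicate block within each line.

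CXCL13, which encodes the chemokine that draws B cells into follicles, had the largest fall among genes of at least 5 CPM in 1 group whose groups did not overlap, but only with DMSO replicate 2 in the fit. It had 0.379, 0.582 and 0.419 CPM with NEO2734, against 4.18, 30.8 and 3.58 CPM with DMSO, where replicate 2 stood far above the other 2 libraries (-4.84 ± 0.75, adjusted p = 0.000105). Without DMSO replicate 2 the change was -2.99. IL12B, the p40 subunit of interleukins 12 and 23 (chr5:159314783-159330887), fell in every replicate. It had 1.04, 1.45 and 5.44 CPM with NEO2734, against 35.0, 39.5 and 39.8 CPM with DMSO, and NEO2734 replicate 3 stood above the other NEO2734 libraries (-4.25 ± 0.48, adjusted p = 7.53e-06). MGAT3, which adds the bisecting sugar to N-glycans, had 4.17, 7.996 and 5.86 CPM with NEO2734, against 30.0, 66.0 and 80.2 CPM with DMSO (-3.23 ± 0.43, adjusted p = 1.06e-05). The other 9 of the 12 largest falls were the extracellular matrix gene TNN (-3.97), the T cell receptor constant gene TRAC (-3.73), the receptor tyrosine kinase gene ROR2 (-3.67), the ubiquitin ligase gene HECW2 (-3.56), the connexin gene GJB6 (-3.43), the ubiquitin ligase subunit gene ASB2 (-3.37), the fibrinogen-like gene FGL2 (-3.33), the adaptor gene GRAP2 (-3.25) and the non-coding RNA gene LINC00158 (-3.20). These 12 also stayed called without any 1 of the 6 libraries and with the replicate block within each line.

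**Figure D1:**
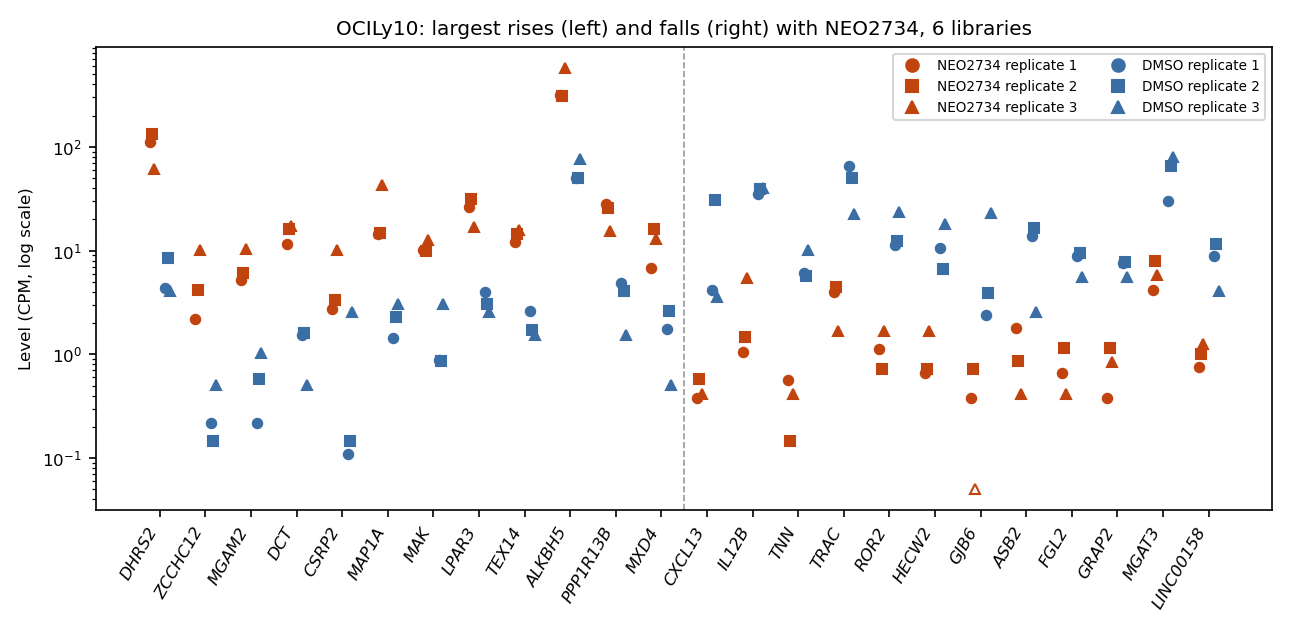
Levels (CPM, log scale) of the 12 largest rises and 12 largest falls in each of the 6 OCILy10 libraries, with NEO2734 in red to the left of DMSO in blue for each gene and a marker shape for each replicate. An open marker at the lower edge stands for 0 CPM (GJB6 in NEO2734 replicate 3). The groups do not overlap for any gene shown, which the choice of genes required, and the CXCL13 DMSO libraries spread from 3.58 to 30.8 CPM.

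Among 25 genes of P-TEFb, its partners, the BET proteins and CREBBP/EP300, 8 rose and 0 fell, with a median of 0.26. The share called was 32%, against 15% of all genes tested. This list and those below were chosen with earlier results of these data known, so their shares are descriptions only. HEXIM1 (chr17:45148502-45152101) had 113, 134 and 231 CPM in NEO2734 libraries, against 36.5, 42.2 and 75.1 CPM in DMSO libraries. The lowest NEO2734 library stood above the highest DMSO library, and the change was 1.64 ± 0.23 (adjusted p = 1.5e-05). BRD2, itself a target of the drug at the protein level, had 342, 320.4 and 381 CPM with NEO2734, against 208, 234 and 248 CPM with DMSO (0.60 ± 0.12, adjusted p = 0.000847). The other risen members included AFF4 (0.74 ± 0.15, adjusted p = 0.00087) and AFF1 (0.74 ± 0.16, adjusted p = 0.00217), scaffolds of the super elongation complex that carries P-TEFb. EP300 had 294, 311 and 358 CPM with NEO2734, against 179.8, 269.8 and 268 CPM with DMSO (0.43 ± 0.14, adjusted p = 0.0357), but the call was lost with the replicate block within each line (adjusted p = 0.145) and when any library other than DMSO replicate 2 was left out (adjusted p = 0.0547 to 0.276). BRD3 (0.44 ± 0.21, adjusted p = 0.173) and CREBBP (0.21 ± 0.16, adjusted p = 0.427) did not pass. The list had 5 called with the replicate block within each line and 5 without NEO2734 replicate 1 or without NEO2734 replicate 3.

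Of 12 genes often used as markers of BET inhibition, 6 rose and 3 fell (75% called, against 15% of all genes tested). ZSWIM6 had 73.7, 63.5 and 74.1 CPM with NEO2734, against 29.7, 21.1 and 26.0 CPM with DMSO (1.46 ± 0.20, adjusted p = 1.13e-05), and its groups were well apart. CCR1, a chemokine receptor gene, had 3 counts over the NEO2734 libraries, against 66 over the DMSO libraries, a ratio of 0.0412 with a 95% counting interval of 0.00829 to 0.126, which covers counting error only. TXNIP, which encodes an arrestin-like inhibitor of glucose uptake, rose by 1.17 ± 0.23 (adjusted p = 0.000811). SERPINI1 had 4.65, 4.65 and 8.37 CPM with NEO2734, against 2.53, 2.02 and 0.511 CPM with DMSO (1.36 ± 0.45, adjusted p = 0.0388). That call was lost when any library other than DMSO replicate 1 was left out (adjusted p = 0.0609 to 0.192), in DESeq2 (adjusted p = 0.07) and with the replicate block within each line (adjusted p = 0.179).

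Of 19 histone genes tested, 8 rose and 0 fell (42.1% called, against 15% of all genes tested), and the median was 1.07. DESeq2 called 8 higher and 1 lower. H2BC21, an H2B gene outside the main clusters whose transcript can be polyadenylated, had 28.0, 18.6 and 33.9 CPM with NEO2734, against 7.48, 2.75 and 0.511 CPM with DMSO (2.65 ± 0.46, adjusted p = 0.0002). H2AC6 had 34.1, 35.2 and 246 CPM with NEO2734, against 8.14, 3.76 and 40.3 CPM with DMSO (2.54 ± 0.40, adjusted p = 7.31e-05). Its shallow libraries stood far above the deep ones in both groups, so the groups overlapped although NEO2734 was higher at either depth. H3-3B, which encodes the replication-independent histone H3.3, rose by 0.71 ± 0.15 (adjusted p = 0.00165) from a much higher level. H2BC8 (2.46 ± 0.55, adjusted p = 0.00263) missed the call with the replicate block within each line (adjusted p = 0.059), under which 5 of the list were called. Histone genes resemble each other in sequence, and reads shared between copies may be split or lost by a counting step whose settings are not known.

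The octamer ATTTGCAT, the letters bound by POU factors and a known element of H2B promoters, lay in the promoter window of 6 of the 8 risen histone genes, against 1 of the 10 with a window among those not called. The part of histone class in this contrast was not tested. The window runs from 250 bases before to 50 after the start in RefSeq (GRCh38.p14), and both strands were searched. It held the octamer in 1.77% of all windows and 1.87% of windows of genes tested. A match describes the letters only. The last 100 bases before the start are shown for the 5 risen H2B genes, since these carry the octamer at nearly the same place in 4 of them, and capitals mark it. They lie at chr1:149886683-149886782 (H2BC21, minus strand), chr6:26216689-26216788 (H2BC8, minus), chr6:27146859-27146958 (H2BC12, minus), chr6:27132796-27132895 (H2BC11, minus) and chr6:26158021-26158120 (H2BC5, plus).
H2BC21: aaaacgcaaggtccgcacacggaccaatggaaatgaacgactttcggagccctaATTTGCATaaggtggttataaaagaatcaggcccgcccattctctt
H2BC8: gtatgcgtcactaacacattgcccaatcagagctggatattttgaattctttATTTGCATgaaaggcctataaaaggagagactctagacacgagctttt
H2BC12: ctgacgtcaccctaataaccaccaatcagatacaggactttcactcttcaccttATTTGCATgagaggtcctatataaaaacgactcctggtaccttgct
H2BC11: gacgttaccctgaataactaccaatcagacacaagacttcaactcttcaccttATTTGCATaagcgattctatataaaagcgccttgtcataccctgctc
H2BC5: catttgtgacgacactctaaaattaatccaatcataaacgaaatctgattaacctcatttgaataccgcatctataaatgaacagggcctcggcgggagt
The octamer began 46 bases before the start in H2BC21, 48 in H2BC8, 46 in H2BC12 and 47 in H2BC11, and these letters were not in the H2BC5 window.

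Of 26 immediate early genes, which cells switch on within minutes of a signal, 9 rose, 1 fell and 16 were not called. The share called was 38.5%, against 15% of all genes tested, and the median was 0.67. FOS, an AP-1 subunit gene, had 6.26, 2.18 and 5.86 CPM with NEO2734, against 0.55, 0.145 and 0 CPM with DMSO (3.75 ± 0.69, adjusted p = 0.000397). EGR1, a zinc finger factor gene, had 44.6, 17.3 and 36 CPM with NEO2734, against 15.1, 3.47 and 6.13 CPM with DMSO (1.99 ± 0.46, adjusted p = 0.00353). Replicate 2 was the lowest library of both groups for FOS among the deep ones and for EGR1 among all, and neither gene's groups overlapped. ZFP36, whose protein destabilises cytokine mRNAs, rose by 1.10 ± 0.25 (adjusted p = 0.00337). ATF3, named after its value was seen, was the 1 member that fell (-0.99 ± 0.28, adjusted p = 0.017). The call of ATF3 was lost without DMSO replicate 3 or any 1 of the NEO2734 libraries (adjusted p = 0.0501 to 0.08) and with the replicate block within each line (adjusted p = 0.0585). With the replicate block within each line 4 members were called, with the block in the 6 libraries alone 15 rose and 1 fell, and 6 were called without NEO2734 replicate 1 and 5 without NEO2734 replicate 3.

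**Figure D2:**
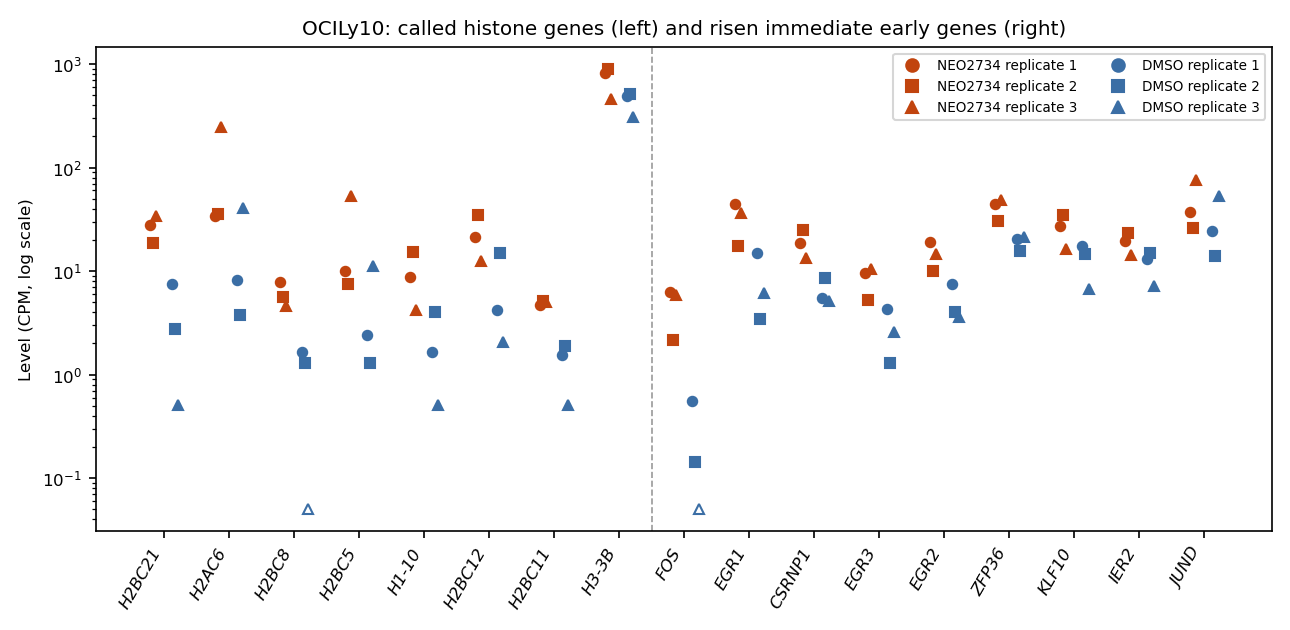
Levels (CPM, log scale) of the 8 risen histone genes and the 9 risen immediate early genes in the 6 OCILy10 libraries, with NEO2734 in red to the left of DMSO in blue and a marker shape for each replicate. An open marker at the lower edge stands for 0 CPM. The shallow replicate 3 stands above the deep replicates in both groups for H2AC6 and H2BC5.

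B cell transcription factor genes fell in number. Of 30 tested, 11 fell and 1 rose (40% called, against 15% of all genes tested), and the median was -0.41. PAX5, the factor that commits cells to the B lineage (chr9:36833275-37034185), had 72.8, 73.6 and 79.1 CPM with NEO2734, against 235, 354 and 359 CPM with DMSO (-2.07 ± 0.21, adjusted p = 2.6e-07). The 3 NEO2734 libraries were close together, and the highest of them lay well below the lowest DMSO library. IKZF1, the Ikaros gene, had 152, 248 and 128 CPM with NEO2734, against 469, 584 and 404 CPM with DMSO (-1.47 ± 0.17, adjusted p = 1.36e-06), and the Aiolos gene IKZF3 changed by -1.31 ± 0.14 (adjusted p = 6.06e-07). EBF1 had 12.4, 21.1 and 31.4 CPM with NEO2734, against 54.0, 75.9 and 90.4 CPM with DMSO (-1.83 ± 0.25, adjusted p = 1.22e-05).

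POU2AF1, the B cell coactivator of the POU factors, fell by 1.92 ± 0.27 on the log2 scale (adjusted p = 2.13e-05), and CBFA2T3 and ETV6 fell as well (-2.56 and -0.86). FOXO1, named after its value was seen as the 1 member that rose, had 134.5, 129 and 120.1 CPM with NEO2734, against 95.5, 89.0 and 65.9 CPM with DMSO (0.62 ± 0.20, adjusted p = 0.0305). Its call did not hold when DMSO replicate 2, DMSO replicate 3, NEO2734 replicate 1 or NEO2734 replicate 3 was left out (adjusted p = 0.0533 to 0.157) and with the replicate block within each line (adjusted p = 0.0684). IRF4, on which lines of the activated type depend, had 466, 522 and 548 CPM with NEO2734, against 767, 762 and 844 CPM with DMSO (-0.63 ± 0.21, adjusted p = 0.0434). Its groups did not overlap, but the call was lost when any 1 of the 6 libraries was left out (adjusted p = 0.0819 to 0.139) and with the replicate block within each line (adjusted p = 0.173). BCL6 stood at 75.7, 62.4 and 56.1 CPM with NEO2734, against 70.2, 72.4 and 59.2 CPM with DMSO (-0.05 ± 0.24, adjusted p = 0.931).

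Among 33 genes of the B cell receptor and its coreceptors, 13 fell, 2 rose and the median was -0.43. The share called was 45.45%, against 15% of all genes tested. FCRL2, an inhibitory Fc receptor-like gene, had 11.9, 18.3 and 10.5 CPM with NEO2734, against 56.5, 82.4 and 95.5 CPM with DMSO (-2.44 ± 0.28, adjusted p = 1.57e-06). LAT2, a signalling adaptor gene, fell by 1.78 ± 0.22 (adjusted p = 4.01e-06) and FCRL3 by 2.40 ± 0.31 (adjusted p = 5.46e-06). In each of these 3 genes every NEO2734 library lay below every DMSO library. The 2 members that rose, named after their values were seen, were MALT1, the protease that links the receptor to NF-kB (0.67 ± 0.16, adjusted p = 0.00518), and CD81, a tetraspanin gene. MALT1 lost its call without DMSO replicate 3 (adjusted p = 0.0637). CD81 lost its call when DMSO replicate 1, DMSO replicate 3 or NEO2734 replicate 3 was left out (adjusted p = 0.0645 to 0.218) and with the replicate block within each line (adjusted p = 0.169). Without NEO2734 replicate 2, 8 members fell. With the replicate block within each line 8 members were called, 7 of them lower. Of 23 genes typical of the activated B cell type, 11 fell and 0 rose (median -0.56, 47.8% called, against 15% of all genes tested). The count was 3 with the replicate block within each line, 7 without DMSO replicate 1 or NEO2734 replicate 1 or 2, and 6 without DMSO replicate 3 or NEO2734 replicate 3. Of 17 genes typical of the germinal centre type, 2 rose and 1 fell (17.65% called, near the 15% of all genes tested). LMO2 was 1 of the risen, with 5.50, 5.52 and 3.35 CPM with NEO2734, against 0.66, 0.723 and 0 CPM with DMSO (3.07 ± 0.47, adjusted p = 9.78e-05). With the replicate block within each line, or without DMSO replicate 1 or NEO2734 replicate 1 or 3, 1 member of this list was called.

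Of 35 NF-kB target genes, 8 fell and 4 rose (34.3% called, against 15% of all genes tested), with a median of 0.11. CXCL10, an interferon-induced chemokine gene, had 14.9, 31.8 and 40.6 CPM with NEO2734, against 199.9, 206 and 332 CPM with DMSO (-3.10 ± 0.29, adjusted p = 2.6e-07). CD80, a costimulatory ligand gene, had 12.7, 16.4 and 13.8 CPM with NEO2734, against 44.9, 59.97 and 37.3 CPM with DMSO (-1.74 ± 0.23, adjusted p = 1.12e-05). The NF-kB subunit gene REL, named after its value was seen, rose and had 119, 151 and 196 CPM with NEO2734, against 51.2, 78.9 and 107 CPM with DMSO (1.00 ± 0.21, adjusted p = 0.00127). The chemokine gene CCL4 also rose (2.14 ± 0.40, adjusted p = 0.000466), with the limit that it has a near-identical copy in the genome. Without NEO2734 replicate 1, 2 members rose and 5 fell, without DMSO replicate 2, 2 rose and 7 fell, and with the replicate block in the 6 libraries alone 8 rose and 9 fell.

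MYC did not pass the test in OCILy10. It had 119.5, 124 and 44.0 CPM with NEO2734, against 160.7, 145 and 115 CPM with DMSO (-0.64 ± 0.31, adjusted p = 0.169). The groups overlapped, and the shallow NEO2734 library was the lowest. Without DMSO replicate 3 the change of MYC was -0.39. The replicate block in the 6 libraries alone called it (-0.56, adjusted p = 0.0161). Of 44 MYC target genes, 16 fell and 0 rose (36.4% called, against 15% of all genes tested), with a median of -0.45. DKC1, a gene of the ribosomal RNA modification complex, had 309.9, 269 and 356 CPM with NEO2734, against 609, 446 and 701 CPM with DMSO (-0.90 ± 0.19, adjusted p = 0.00145). MRTO4, a ribosome assembly gene, fell by 0.77 ± 0.16 (adjusted p = 0.00134). The list had 5 called with the replicate block within each line, 25 with the block in the 6 libraries alone, 9 without DMSO replicate 3 and 4 without NEO2734 replicate 3. MXD1 and MXD4, whose proteins compete with MYC for MAX, rose by 1.71 ± 0.30 (adjusted p = 0.000282) and 2.66 ± 0.52 (adjusted p = 0.000751). They were the 2 called of 11 genes of that network (18.2%, against 15% of all genes tested). The E-box CACGTG, which MYC with MAX can bind, was found in 9.26% of promoter windows of risen genes, 16.5% of those of fallen genes and 12.8% of those of all genes tested.

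Of 40 interferon-stimulated genes, 17 fell and 0 rose (42.5% called, against 15% of all genes tested), and the median was -1.09. GBP1, an interferon-induced GTPase gene, had 19.5, 27.9 and 16.3 CPM with NEO2734, against 108, 146 and 131 CPM with DMSO (-2.56 ± 0.32, adjusted p = 5.44e-06). OAS2, which senses double-stranded RNA, had 58.9, 75.2 and 51.9 CPM with NEO2734, against 184, 255 and 179 CPM with DMSO (-1.73 ± 0.32, adjusted p = 0.000434). XAF1 fell by 2.81 ± 0.49 (adjusted p = 0.000205) and the DNA sensor gene IFI16 by 1.13 ± 0.21 (adjusted p = 0.000515). The count moved with single libraries: 11 were called without DMSO replicate 2 and 11 without NEO2734 replicate 1, while 19 were called with the replicate block within each line and 31 lower and 2 higher with the block in the 6 libraries alone.

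The core of the interferon-stimulated response element (GAAA, any 2 bases, then GAAA) was found on either strand in 8.15% of windows of fallen genes, 2.75% of those of risen genes and 4.24% of those of all genes tested. Within the list it was in 7 of 11 fallen members with a window and in 13 of 18 members not called, so it did not part the fallen from the others. CXCL10 (chr4:76023498-76023747, minus strand) and GBP1 (chr1:89065209-89065408, minus strand) are shown from RefSeq on GRCh38.p14 up to the base before the start, because they had the lowest p of the interferon-induced genes described. Capitals mark the match, which begins 221 bases before the start in CXCL10 and 127 bases before it in GBP1, where it lies on the other strand.
CXCL10: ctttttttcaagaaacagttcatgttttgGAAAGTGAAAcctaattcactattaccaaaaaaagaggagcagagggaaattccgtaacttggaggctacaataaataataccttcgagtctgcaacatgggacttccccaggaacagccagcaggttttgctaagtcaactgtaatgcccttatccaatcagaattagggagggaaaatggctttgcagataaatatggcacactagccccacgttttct
GBP1: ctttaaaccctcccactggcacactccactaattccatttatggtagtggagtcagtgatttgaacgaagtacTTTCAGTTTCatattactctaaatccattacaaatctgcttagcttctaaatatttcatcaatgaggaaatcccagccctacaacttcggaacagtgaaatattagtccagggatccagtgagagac

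The lists of MHC class II, pro-death and cell cycle genes had 23.5%, 23.5% and 13.5% called, against 15% of all genes tested. Of 17 MHC class II pathway genes, 4 fell and 0 rose. RFX5, a factor that binds class II promoters, had 68.4, 65.9 and 96.7 CPM with NEO2734, against 128, 137 and 179 CPM with DMSO (-0.95 ± 0.14, adjusted p = 3.07e-05). Without DMSO replicate 1, 2 were called, and with the replicate block in the 6 libraries alone 7 were. CIITA, the master coactivator of these genes, did not pass (-0.43 ± 0.21, adjusted p = 0.171). Of 17 pro-death genes, 3 fell and 1 rose. BMF, a BH3-only gene, had 71.4, 105.5 and 132 CPM with NEO2734, against 186, 346 and 267 CPM with DMSO (-1.39 ± 0.25, adjusted p = 0.00031), and APAF1, the apoptosome scaffold gene, had 57.4, 72.4 and 83.7 CPM with NEO2734, against 31.9, 41.8 and 28.6 CPM with DMSO (1.03 ± 0.20, adjusted p = 0.00087). BCL2 (0.10 ± 0.16, adjusted p = 0.763) and the cell cycle inhibitor gene CDKN1A (0.04 ± 0.24, adjusted p = 0.955) did not pass. Of 37 cell cycle genes, 3 fell and 2 rose, and E2F2 had the lowest p (-1.39 ± 0.26, adjusted p = 0.000484). That list had 3 called without DMSO replicate 2 or 3 or NEO2734 replicate 1, 2 without NEO2734 replicate 3 and 2 with the replicate block within each line, and 7 rose and 10 fell with the block in the 6 libraries alone.

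Among 34 autophagy and lysosome genes, 7 rose and 1 fell (23.5% called, against 15% of all genes tested). NEU1, the lysosomal sialidase gene, had 51.1, 54.5 and 28.5 CPM with NEO2734, against 22.5, 16.9 and 8.68 CPM with DMSO (1.48 ± 0.22, adjusted p = 2.83e-05), with no overlap. MAP1LC3B, which encodes the autophagosome protein LC3B, rose by 0.84 ± 0.18 (adjusted p = 0.00215). The list had 4 called with the replicate block within each line and 16 with the block in the 6 libraries alone, and 5 without DMSO replicate 1 or 3, 4 without NEO2734 replicate 2 and 4 without NEO2734 replicate 3. Of 17 genes of glucose handling and arrestin-domain proteins, 5 rose and 0 fell (29.4% called). PGM2L1 was among the risen (1.69 ± 0.29, adjusted p = 0.000228). The count of this list was 2 with the replicate block within each line or without DMSO replicate 3 and 3 without DMSO replicate 1 or NEO2734 replicate 2.

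Of 48 cytosolic ribosomal protein genes and 15 mitochondrially encoded genes, 0 were called in either direction, with medians of 0.03 and 0.06. With the replicate block in the 6 libraries alone 5 ribosomal protein genes were called higher. Of 22 p53 target genes 3 rose and 1 fell, of 22 cholesterol synthesis genes 1 rose and 3 fell, of 22 ATF4 and ER stress genes 1 rose and 4 fell, and of 14 heat shock genes 4 fell. The shares called were 18.2%, 18.2%, 22.7% and 28.6% in the order given, against 15% of all genes tested. These counts moved with single libraries. The p53 targets had 1 called without DMSO replicate 3, 2 without NEO2734 replicate 2 and 0 without NEO2734 replicate 3, against 8 higher and 2 lower with the replicate block in the 6 libraries alone. Without DMSO replicate 2, 5 p53 targets were called, all higher. Leaving out any 1 library left 0 to 2 of the cholesterol genes called, and left 1 to 3 of the ATF4 and ER stress genes called except without DMSO replicate 3. The heat shock genes had 2 called without any 1 of the DMSO libraries or NEO2734 replicate 1, and 0 without NEO2734 replicate 3. They had 5 called without NEO2734 replicate 2. With the replicate block within each line 1 was called, and with the block in the 6 libraries alone 7 were. In 23 genes of the JAK, STAT and cytokine axis 6 fell (26.1%), with 2 called without DMSO replicate 3 or NEO2734 replicate 1 or 2 and 3 without DMSO replicate 2 or with the replicate block within each line. Of 16 plasma cell genes 5 fell (31.3%), with 2 called without DMSO replicate 1 or NEO2734 replicate 2 or 3 and 3 without DMSO replicate 3 or NEO2734 replicate 1. Of 16 MHC class I genes 1 fell (6.25%), NLRC5, named after its value was seen. The call of NLRC5 did not hold when DMSO replicate 2, DMSO replicate 3, NEO2734 replicate 1 or NEO2734 replicate 3 was left out (adjusted p = 0.113 to 0.171) and with the replicate block within each line (adjusted p = 0.131). Of 10 pro-survival genes 1 fell (10%), BIRC3, whose call was lost without any 1 of the 6 libraries (adjusted p = 0.0658 to 0.127). In 13 Notch pathway genes 2 rose and 3 fell (38.5% called), among them DTX1 (-1.20 ± 0.24, adjusted p = 0.001) and NOTCH2 (0.85 ± 0.19, adjusted p = 0.00327), with 3 called without DMSO replicate 2 or NEO2734 replicate 3 or with the replicate block within each line.

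**Figure D3:**
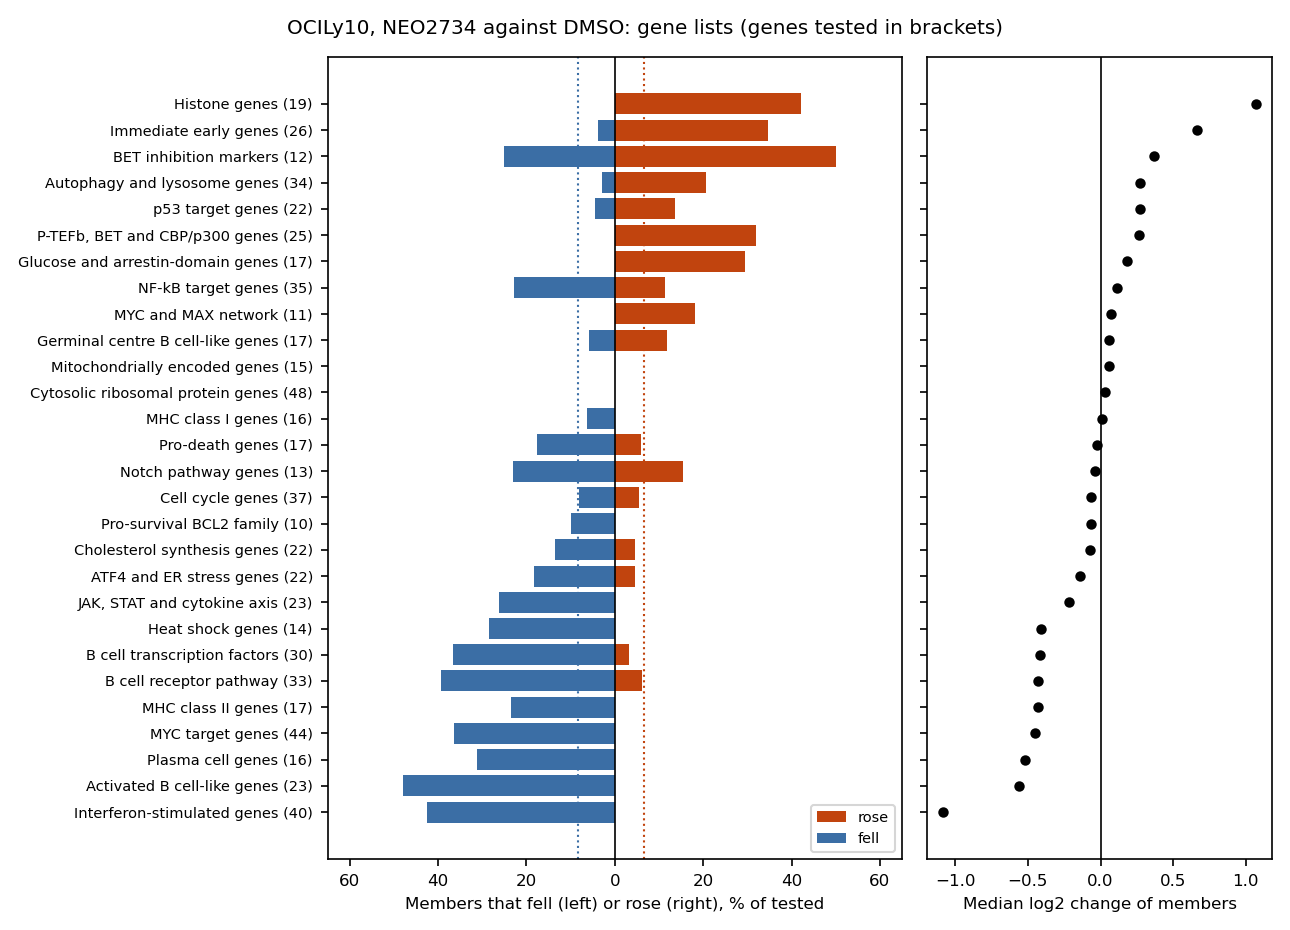
Gene lists in OCILy10, NEO2734 against DMSO: the bars give the percentage of tested members that fell (left, blue) or rose (right, red), and the dots give the median log2 change of all tested members. The dotted lines mark the 6.54% of all genes that rose and the 8.43% that fell. The lists of cell type markers are not shown. Among the lists shown, the interferon-stimulated genes have the lowest median (-1.09) and the histone genes the highest (1.07).

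Markers of cell types other than B cells were read to check the line. The B cell markers summed to 4236, 4562 and 2992 CPM with NEO2734, against 5388, 5241 and 3319 CPM with DMSO. Of these 9 markers 4 fell (44.4%, against 8.43% of all genes tested). Of 11 T cell markers listed, only 6 were among the genes deposited, and all 6 were tested. Of these 6, 5 fell (83.3%, against 8.43% of all genes tested), with a median of -2.23. With the replicate block within each line 3 fell. The 6 tested summed to 15.6, 14.97 and 7.12 CPM with NEO2734, against 131.6, 91.3 and 45.5 CPM with DMSO. TRAC was the largest part of the sum in DMSO, with 3.98, 4.51 and 1.67 CPM with NEO2734, against 66.0, 50.1 and 22.5 CPM with DMSO (-3.73 ± 0.37, adjusted p = 9.33e-07). CD2 was lower too, with 1.71, 1.31 and 0.419 CPM with NEO2734, against 15.4, 9.83 and 2.55 CPM with DMSO. Of 9 monocyte markers 3 were among the genes deposited and 0 passed the filter on low counts. Of the 2 epithelial markers tested 0 were called. The part of T cell RNA in the falls of TRAC and GRAP2 was not tested.

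The change in OCILy10 was set against the mean change of DOHH2, TMD8 and Toledo, which share no library with it. NEO2734 changed 3530 genes on average in those lines (26.8% of genes tested). Of the genes called in OCILy10, 1286 were also called there with the same sign, which is 65.3% of the OCILy10 calls and 36.4% of the others, and 9 were called with the other sign. The difference itself passed the test for 29 genes (0.22%), 16 of them higher and 13 lower in OCILy10. That count was 6 with the replicate block within each line, 2 with all 39 libraries, 1 without a depth term, 0 within the deep or the shallow libraries alone, 16 without DMSO replicate 3, 17 without NEO2734 replicate 1 and 15 without NEO2734 replicate 3.

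ALKBH5 had the lowest p for this difference: its change was 2.73 in OCILy10, against 0.25 in DOHH2, 1.36 in TMD8 and 0.37 in Toledo (difference 2.07 ± 0.20, adjusted p = 7.27e-07), and the replicate block within each line gave an adjusted p of 0.000632. MAP1A differed by 2.40 ± 0.41 (adjusted p = 0.00458) and TAF9, a subunit of the general factor TFIID, by 1.12 ± 0.19 (adjusted p = 0.00458). TAF9 had 245.7, 225 and 207 CPM with NEO2734, against 96.6, 78.2 and 64.9 CPM with DMSO in OCILy10, and it overlaps the gene AK6, so reads of both may be in its value. PTPN6, the phosphatase that damps B cell receptor signalling, had 399, 284 and 147 CPM with NEO2734, against 372, 294 and 154 CPM with DMSO in OCILy10, while its changes were -2.49 in DOHH2, -1.30 in TMD8 and -1.39 in Toledo (difference 1.73 ± 0.25, adjusted p = 0.00109). CIITA differed in the same direction (1.71 ± 0.26, adjusted p = 0.00152).

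ARHGAP18, which encodes a GTPase-activating protein, changed by -1.75 in OCILy10, against 0.31 in DOHH2, -0.49 in TMD8 and 0.53 in Toledo. It had 11.4, 14.97 and 13.0 CPM with NEO2734, against 44.6, 43.9 and 43.9 CPM with DMSO in OCILy10, and the difference was -1.87 ± 0.30 (adjusted p = 0.00374). IL6ST, the shared receptor chain of the interleukin 6 family, changed by -0.60 in OCILy10 and by 0.79, 0.76 and 1.06 in DOHH2, TMD8 and Toledo (difference -1.47 ± 0.25, adjusted p = 0.00458). With the replicate block within each line the difference lost its call for CIITA (adjusted p = 0.0915), ARHGAP18 (0.402), TAF9 (0.314) and IL6ST (0.0845), and kept it for PTPN6 (0.00066) and MAP1A (0.0336). That block has no depth term, and same-numbered Toledo NEO2734 and DMSO libraries in the fit differed in depth. The part of depth in the lost calls was not tested.

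**Figure D4:**
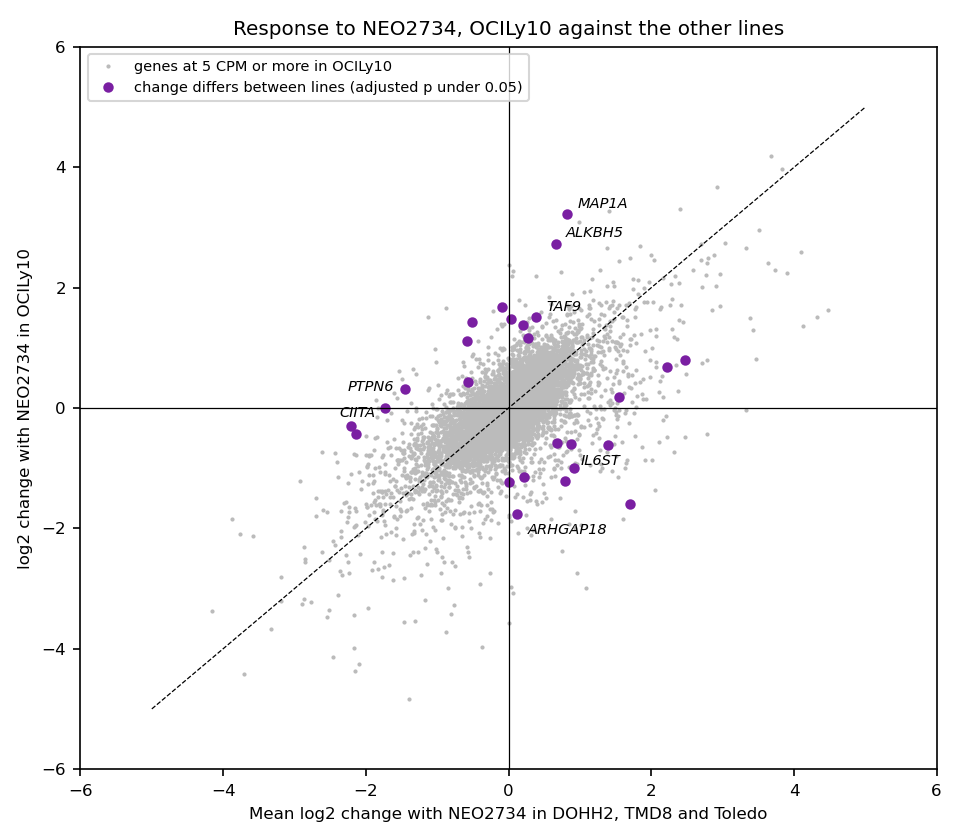
Each gene's log2 change with NEO2734 in OCILy10 (vertical axis) against the mean log2 change in DOHH2, TMD8 and Toledo (horizontal axis) for the 10350 genes of at least 5 CPM in OCILy10. The 26 of them whose change differed between OCILy10 and the other lines (adjusted p under 0.05) are in purple, and ALKBH5 and MAP1A stand above the dashed line of equal change while ARHGAP18 and IL6ST stand below it.

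TMD8 is the other line of the activated B cell type, and 1848 genes were called there (14% of genes tested), 5.62% higher and 8.42% lower. The changes of the 2 lines differed for 54 genes (0.41%), of which 45 (0.342%) were higher in OCILy10 and 9 (0.0684%) lower. The count was 30 with the replicate block within each line, 9 with all 39 libraries, 0 without a depth term or within 1 depth, 35 without DMSO replicate 1, 29 without DMSO replicate 3 and 30 without NEO2734 replicate 3. Of the 40 interferon-stimulated genes, 17 fell in OCILy10 and 36 in TMD8 (8.42% of all genes fell in TMD8). Their median change was -1.09 in OCILy10 and -2.87 in TMD8, and 9 of them differed between the lines, each with the change nearer to 0 in OCILy10. IFIT3 was 1 of these 9: it had 7.30, 11.2 and 3.35 CPM with NEO2734, against 11.8, 18.6 and 12.3 CPM with DMSO in OCILy10, while TMD8 averaged 5.47 ± 4.04 CPM with NEO2734 and 138 ± 59.5 CPM with DMSO (SD, n = 3 each). Its change was -0.89 in OCILy10 and -4.92 in TMD8 (difference 4.03 ± 0.55, adjusted p = 0.000718). The DMSO level of IFIT3 was thus lower in OCILy10 than in TMD8, and its part in the difference was not tested. IFIH1, the RNA sensor also called MDA5, differed by 2.97 ± 0.44 (adjusted p = 0.00117), with changes of -0.49 in OCILy10 and -3.46 in TMD8.

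MYC differed between these lines too. Its change was -0.64 in OCILy10 and -3.33 in TMD8, where it averaged 21.2 ± 2.599 CPM with NEO2734 and 209 ± 139 CPM with DMSO (SD, n = 3 each; difference 2.68 ± 0.47, adjusted p = 0.00398). CD69, an early activation marker, had 20.3, 9.01 and 15.5 CPM with NEO2734, against 7.59, 3.03 and 8.17 CPM with DMSO in OCILy10 (1.33 ± 0.38, adjusted p = 0.0169), and its change in TMD8 was -2.03. The call of CD69 in OCILy10 was lost without DMSO replicate 2 or NEO2734 replicate 1 (adjusted p = 0.111 and 0.175) and with the replicate block within each line (adjusted p = 0.0767). The difference was 3.37 ± 0.57 (adjusted p = 0.00398). CD38, a plasma cell and activation marker, had 4 counts over the TMD8 NEO2734 libraries, against 81 over the TMD8 DMSO libraries, and changed by 0.32 ± 0.28 in OCILy10 (difference 4.59 ± 0.65, adjusted p = 0.000718). SLFN5 (2.03), HERC1 (1.497), TP53I11 (2.23) and CIITA (2.10) were the others of lowest p, each with the higher change in OCILy10.

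**Figure D5:**
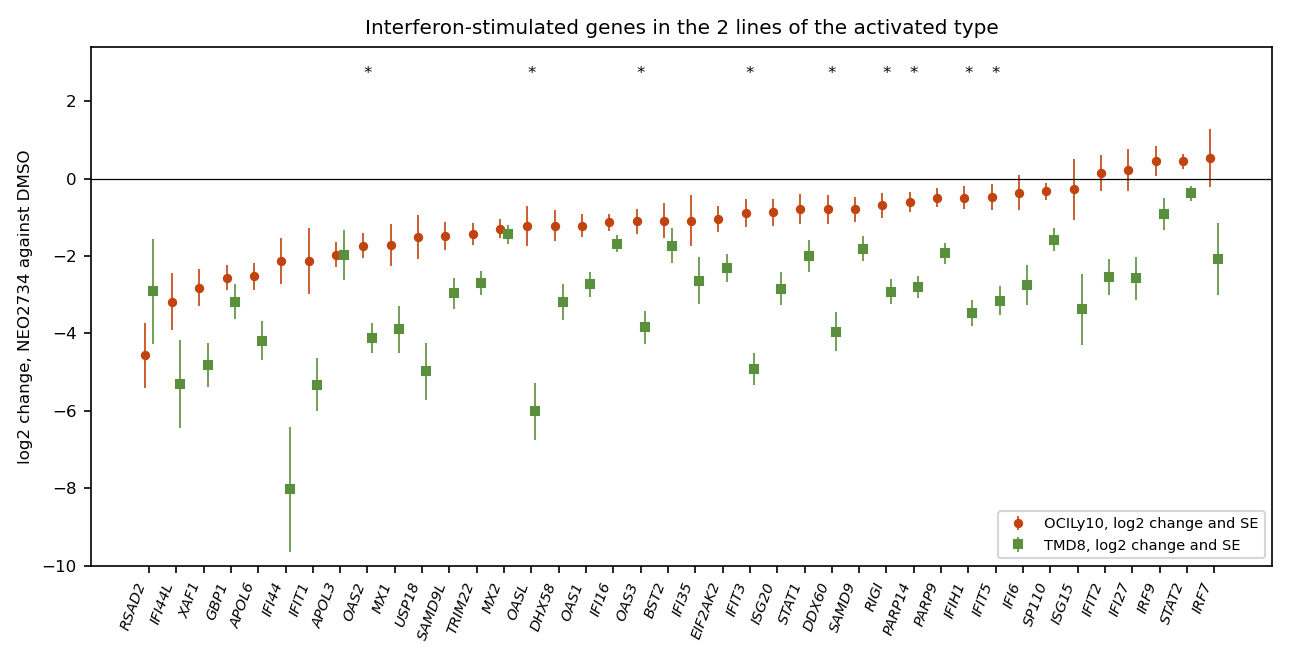
log2 change with NEO2734 against DMSO, with SE bars, of the 40 interferon-stimulated genes in OCILy10 (red circles) and TMD8 (green squares), ordered by the change in OCILy10. Stars mark the 9 genes whose change differed between the lines (adjusted p under 0.05), among them IFIT3 (-0.89 in OCILy10 and -4.92 in TMD8).

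NEO2734 was also set against OTX015 within OCILy10, with the limits that doses are not given and that depth is not matched: OTX015 replicate 1 was deep (11668542 counts) and replicates 2 and 3 were shallow (1452155 and 1837777 counts), while only replicate 3 of NEO2734 was. No gene passed the test: 0 of 13160 (0%), with 426 at an unadjusted p under 0.05, and the count was 0 in DESeq2 and in limma-voom. OTX015 against the same DMSO libraries called 937 genes (7.12%), of which 396 were higher (3.01%) and 541 lower (4.11%). HEXIM1 had 113, 134 and 231 CPM with NEO2734, against 112, 124 and 252 CPM with OTX015, and the fitted difference was 0.23 with a 95% interval of -0.23 to 0.69. The fit holds a depth term, which was -0.90 (deep over shallow) for HEXIM1, and the fitted sign is not that of the means (159 CPM with NEO2734 and 163 CPM with OTX015). ALKBH5 had 319.6, 309 and 576 CPM with NEO2734, against 274, 311 and 502 CPM with OTX015 (0.32, 95% interval -0.03 to 0.66). PAX5 had 72.8, 73.6 and 79.1 CPM with NEO2734, against 128, 90.4 and 128 CPM with OTX015 (-0.63, 95% interval -1.06 to -0.19, adjusted p = 1). These intervals are not adjusted over genes, and they leave room for differences of the size given.

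The 4 genes of lowest p for this difference did not pass. CCL4 had 17.4, 15.7 and 8.37 CPM with NEO2734, against 4.36, 0.773 and 2.79 CPM with OTX015 (1.97 ± 0.45, adjusted p = 0.737). RASA3, which encodes a Ras GTPase-activating protein, had 14.3, 5.67 and 2.93 CPM with NEO2734, against 21.7, 10.8 and 8.93 CPM with OTX015 (-1.30 ± 0.30, adjusted p = 0.737). IGHG3, an immunoglobulin constant gene with close copies, differed by -1.18 ± 0.27 (adjusted p = 0.737) and UBTF, a factor for ribosomal RNA transcription, by -0.54 ± 0.14 (adjusted p = 1). Without NEO2734 replicate 1, RASA3 was called (adjusted p = 0.0202), the single gene called in any of the fits run.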

How the data were processed

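The deposited table holds raw counts per gene (15808 genes, 39 libraries). Reads were aligned to hg38 with STAR, and edgeR was used, per the submitters' processing notes; versions, counter, annotation and strand setting were not given in the sources used here. RNA was extracted with Trizol and libraries made with a TruSeq RNA kit, per the labels' protocols. A shared treatment text in the labels also names other compounds and times, so each sample's own label was used. A second deposited table, also of whole numbers, was not used. Counts were fitted with edgeR 4.0.16 (quasi-likelihood, TMM, filterByExpr, R 4.3.3) in 36 libraries, with group and a term within each line for depth over 5000000 counts, 19 residual degrees of freedom and 13160 genes tested. limma 3.58.1 and DESeq2 1.42.0 served as alternatives, and the fit was tested on simulated data. It found 92% of genes raised 4-fold and 60% of those raised 2-fold (50 genes each). Of genes lowered 4-fold and 2-fold it found 84% and 48% (50 genes each). Of its 165 calls in the simulated data, 23 were genes that had not been changed. That is a larger share than the 0.05 that the cut on adjusted p is meant to keep to. The called genes may therefore hold more false calls than the cut implies. Same-numbered NEO2734 and DMSO libraries deviated together (r = 0.78, 0.826 and 0.875 across genes), so fits with replicate as a block stand beside the results. Among the deep libraries, r was 0.543 for NEO2734 replicate 1 with DMSO replicate 2 and 0.407 for NEO2734 replicate 2 with DMSO replicate 1. Named genes were the 12 largest rises and 12 largest falls (called, at least 5 CPM in 1 group, groups apart), up to 6 members of lowest p per list, a fixed set of genes read throughout, up to 8 called genes per difference between lines and the 4 of lowest p against OTX015. Members and lists were chosen with earlier results of these data known. Coordinates are from GENCODE 29 on GRCh38. Counting intervals cover counting error only. Some genes are not reported here.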

Additional observations from a re-analysis of the deposited data

Results flagged for a closer look

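The change with NEO2734 differed between OCILy10 and the mean of DOHH2, TMD8 and Toledo (edgeR's quasi-likelihood test of the difference, Benjamini-Hochberg adjusted p under 0.05) for 10 of the genes named or listed in the report. The difference on the log2 scale, with the change in OCILy10 and then the mean change of the other lines in brackets, was ALKBH5 2.075 (2.73 and 0.66), ARHGAP18 -1.87 (-1.75 and 0.12), ATF3 -1.90 (-0.99 and 0.91), CD38 1.77 (0.32 and -1.45), CIITA 1.71 (-0.43 and -2.14), H2BC20P -1.67 (0.80 and 2.48), IL6ST -1.47 (-0.60 and 0.87), MAP1A 2.40 (3.22 and 0.82), PTPN6 1.73 (0.01 and -1.73) and TAF9 1.12 (1.505 and 0.38).

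Between OCILy10 and TMD8 the same test was passed by 25 of these genes. The difference, with the change in OCILy10 and then that in TMD8 in brackets, was ALKBH5 1.38 (2.73 and 1.36), CD180 1.75 (-1.14 and -2.89), CD38 4.59 (0.32 and -4.27), CD69 3.37 (1.33 and -2.03), CFLAR 1.51 (0.39 and -1.12), CIITA 2.10 (-0.43 and -2.53), DDX60 3.16 (-0.80 and -3.95), DENND3 3.13 (1.60 and -1.53), DTX3L 1.13 (-0.67 and -1.80), HERC1 1.497 (0.85 and -0.65), IFIH1 2.97 (-0.49 and -3.46), IFIT3 4.03 (-0.89 and -4.92) and IFIT5 2.68 (-0.47 and -3.16) for the first 13 by name. For the other 12 it was IL10 4.86 (-0.18 and -5.05), LMO2 3.41 (3.065 and -0.35), MYC 2.68 (-0.64 and -3.33), NFKBIE 1.05 (0.12 and -0.93), OAS2 2.38 (-1.73 and -4.11), OAS3 2.74 (-1.10 and -3.84), OASL 4.79 (-1.22 and -6.01), PARP14 2.19 (-0.60 and -2.80), PTPN6 1.31 (0.01 and -1.30), RIGI 2.23 (-0.69 and -2.92), SLFN5 2.03 (0.39 and -1.64) and TP53I11 2.23 (0.21 and -2.01). The adjusted p of these differences ran up to 0.0473 (NFKBIE). The interferon-stimulated genes OAS2, OAS3, IFIT3, PARP14, OASL, RIGI, DDX60, IFIH1 and IFIT5 are among them, and all 25 differences are positive, that is, the change was higher or less negative in OCILy10. H2BC20P is a pseudogene with close copies, and its difference had an adjusted p of 0.667 with the replicate block within each line.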

How the results depend on the processing

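Counts for NEO2734 against DMSO stayed within 1.5 times the main 1970 under RLE factors, library totals, no filter, a 1 CPM filter, DESeq2, limma-voom, the OCILy10 libraries alone, the 6 libraries alone and a block of 3 depth classes that was chosen after seeing the data. They were 994 with all 39 libraries, 214 with neither depth term nor block, 120 in the deep and 27 in the shallow libraries alone, and 1055 to 1709 without 1 library. The replicate block gave 946 within each line and 3932 in the 6 libraries alone. For the difference from the other lines (29), the counts were 76 in DESeq2, 44 in limma-voom, 2 with all 39 libraries, 1 with neither term, 0 within either depth, 6 with the replicate block and 15 to 32 without 1 library. For TMD8 (54) they were 105 in DESeq2, 9 with all 39 libraries, 0 with neither term, 0 within either depth, 30 with the replicate block and 29 to 43 without 1 library. For NEO2734 against OTX015 (0) they were 0 to 1 without 1 library. The cause of these shifts was not tested; the single-depth fits hold fewer samples. Among genes that were not called, the sign turned for BRD3 (-0.0426 in shallow libraries), BCL2 (-0.252 in shallow libraries, -0.0583 to 0.272 without 1 library), BCL6 (-0.131 to 0.0516 without 1 library) and CDKN1A (-0.0243 in deep libraries, -0.113 to 0.321 without 1 library). The fits of OCILy10 libraries alone give no value for the differences between lines, and the fit of the 6 libraries gives none for OTX015. Depth limits genes with few counts, above all in replicate 3.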

Other observations

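Several gene families that were not lists of their own in the report held called members in OCILy10. Some members, such as GBP1, IFIT3 and IFIT5, are also among the interferon-stimulated genes above, so these counts partly repeat results already given. The families were chosen after their values were seen. Their counts are descriptions, to be read beside the 6.54% of all genes that rose and the 8.43% that fell. Of 6 butyrophilin genes 4 fell, and BTN3A2, whose protein takes part in the sensing of phosphoantigens by gamma-delta T cells, had 14.1, 13.7 and 22.6 CPM with NEO2734, against 39.3, 32.5 and 60.8 CPM with DMSO (-1.38 ± 0.20, edgeR adjusted p = 2.29e-05). Of 5 apolipoprotein L genes 4 fell, among them APOL1 with 16.4, 24.6 and 32.2 CPM with NEO2734, against 79.5, 77.2 and 97.5 CPM with DMSO (-1.84 ± 0.27, edgeR adjusted p = 3.11e-05). Of 4 guanylate-binding protein genes 3 fell, with GBP4 at -1.71 ± 0.33. The groups did not overlap for BTN3A2, APOL1 or GBP4, and these 3 stayed called without any 1 of the 6 libraries. Of 7 IFIT and IFITM genes, 0 were called.

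Of 6 Toll-like receptor genes 3 fell. TLR10 had 7.77, 11.2 and 9.21 CPM with NEO2734, against 34.7, 27.7 and 17.4 CPM with DMSO (-1.52 ± 0.29, edgeR adjusted p = 0.00064), and its call was lost with the replicate block within each line (adjusted p = 0.0704). Of 12 KLF zinc finger factor genes 3 rose and 0 fell, among them KLF5 with 29.6, 26.0 and 16.3 CPM with NEO2734, against 11.6, 13.0 and 7.15 CPM with DMSO (1.18 ± 0.36, edgeR adjusted p = 0.0263). Without 1 library the adjusted p of KLF5 ran from 0.05 to 0.0861, and with the replicate block within each line it was 0.235. Members of a family can share sequence, and how shared reads were counted is not given in the sources used here.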
